A study of Rattus norvegicus with 20 samples.

Results

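The fatty acid binding protein genes Fabp1 to Fabp7 were followed in fetal rat testis after exposure of the dam to plasticizers. Members were the probes whose deposited gene name is 1 of these 7 symbols, which gave 8 probes of the 41012 on the array and 7 of its 35737 gene names. The family was selected on the measured values of Fabp6, which were lower with DEHP than in controls, so values in that contrast are a description with no test. Pregnant Han Wistar dams were gavaged daily at 500 mg/kg on gestation days 12 to 19 with 1 of 4 compounds or with vehicle alone. The compounds were DEHP (a phthalate diester), MEHP (the monoester of the same phthalate), TOTM (tris(2-ethylhexyl) trimellitate, a triester of another aromatic acid with the same alcohol) and a compound the labels name only as EHO. Doses were equal by mass, not by mole. The control group received corn oil. Each of the 5 groups has 4 Agilent 1-colour arrays, and each array holds RNA pooled from the testes of at least 3 pups of a litter (6 testes), so p-values measure the spread between such pools.

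Fatty acid binding proteins are small cytosolic carriers that hold a fatty acid or another lipid inside a barrel and move it between membranes, enzymes and nuclear receptors. They are named for the tissue where each is abundant: Fabp1 for liver, Fabp2 for intestine, Fabp3 for heart and muscle, Fabp4 for fat, Fabp5 for epidermis and Fabp7 for brain. Fabp6, the ileal bile acid-binding protein, carries bile acids rather than fatty acids in enterocytes of the ileum, where its gene is a known target of FXR, the bile acid receptor encoded by Nr1h4. The testis makes steroids from cholesterol in Leydig cells, and in the fetus these cells are a known target of DEHP and MEHP.

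The Fabp6 promoter is shown because Fabp6 carries the finding that brought the family here. RefSeq promoters (build GRCr8) were found for 5 of the 7 members, and the 250 bases that end at the Fabp6 start site lie at chr10:28569728-28569977 on the minus strand. Capitals mark the only match there to AGGTNA followed by 1 base and its reverse complement TNACCT, the spelling searched for an inverted repeat of the kind FXR binds.

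Fabp6: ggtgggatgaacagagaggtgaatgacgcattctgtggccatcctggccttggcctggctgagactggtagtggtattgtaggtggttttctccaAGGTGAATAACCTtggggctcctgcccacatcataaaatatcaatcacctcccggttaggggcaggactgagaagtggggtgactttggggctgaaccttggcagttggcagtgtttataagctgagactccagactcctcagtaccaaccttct

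The match reads AGGTGAATAACCT and spans 155 to 143 bases before the start site (chr10:28569870-28569882). The motif reads the same on both strands at its fixed letters, and both strands were searched. It was present in 15 of 33469 promoters of the same length (0.0448%) and in 1 of the 5 members. AAGGTCA, a site of the kind the steroidogenic factor encoded by Nr5a1 binds, was present in 1336 of these promoters (3.99%) and in 0 of the 5 members. Both spellings were chosen after the sequence had been read, and a match describes letters, not a site in use. Nr1h4 itself was not well above background on any of the 20 arrays.

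Several arrays bear on every comparison. MEHP 1 and MEHP 2 differed by less than the noise between repeated spots (ratio 0.826, against a median of 2.52 for pairs within a group) and were counted as 1 sample, which left 3 MEHP samples. The next closest of the 190 pairs crossed groups: MEHP 3 with control 2 (ratio 1.43) and DEHP 3 with MEHP 4 (1.47). Differences of Fabp6 and Fabp3 between MEHP and control are therefore also given without some of these arrays. EHO arrays had 46.1% to 63.5% of spots well above background, against 63.9% to 79.8% on the other arrays. The arrays of a group share a slide and no slide holds more than 1 group, so slide and group cannot be told apart. Markers of the fetal testis were present: Amh, the Sertoli cell hormone, was between 5.22 and 6.18 on every array. Levels here are log2 processed signals minus the 75th percentile of the array, so a level of 0 is the signal at that percentile. Levels of different probes are not compared.

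Probes of 5 members passed the filter, which asks that all arrays of some group read well above background. Fabp3 was well above background on 20 of 20 arrays, Fabp6 on 19 and Fabp4 on 16. Fabp1 has 2 probes, well above background on 19 arrays (upstream probe, chr4:104413796-104413855 of rn4) and on 18 (downstream probe, chr4:104415250-104415919). Fabp2, the intestinal carrier, and Fabp7, the brain carrier found in glia, were well above background on 0 of 20 arrays. Their processed signals ran between 7.26 and 29.3 for Fabp2 and between 6.11 and 23.0 for Fabp7.

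Fabp6 was lowest in DEHP testes and highest in controls. Its probe spans chr10:28694853-28695787 on the minus strand of rn4 over 935 bases. In DEHP testes its levels were -2.98, -2.33, -2.34 and -2.38, the first not well above background. In MEHP testes they were -2.46, -2.67, -1.43 and -2.24. In TOTM testes they were -1.08, -1.53, -1.68 and -1.40. All DEHP arrays lay below all TOTM arrays, and MEHP 3 stood above the other MEHP arrays. In EHO testes the levels were -2.53, -2.35, -2.38 and -1.54, and in control testes -1.10, -1.45, -0.68 and -1.38. Both the DEHP and the EHO arrays lay wholly below the control arrays, while TOTM and MEHP arrays overlapped them. Groups did not overlap for 13.4% of all genes in EHO minus control and for 2.92% in DEHP minus control.

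**Figure D1:**
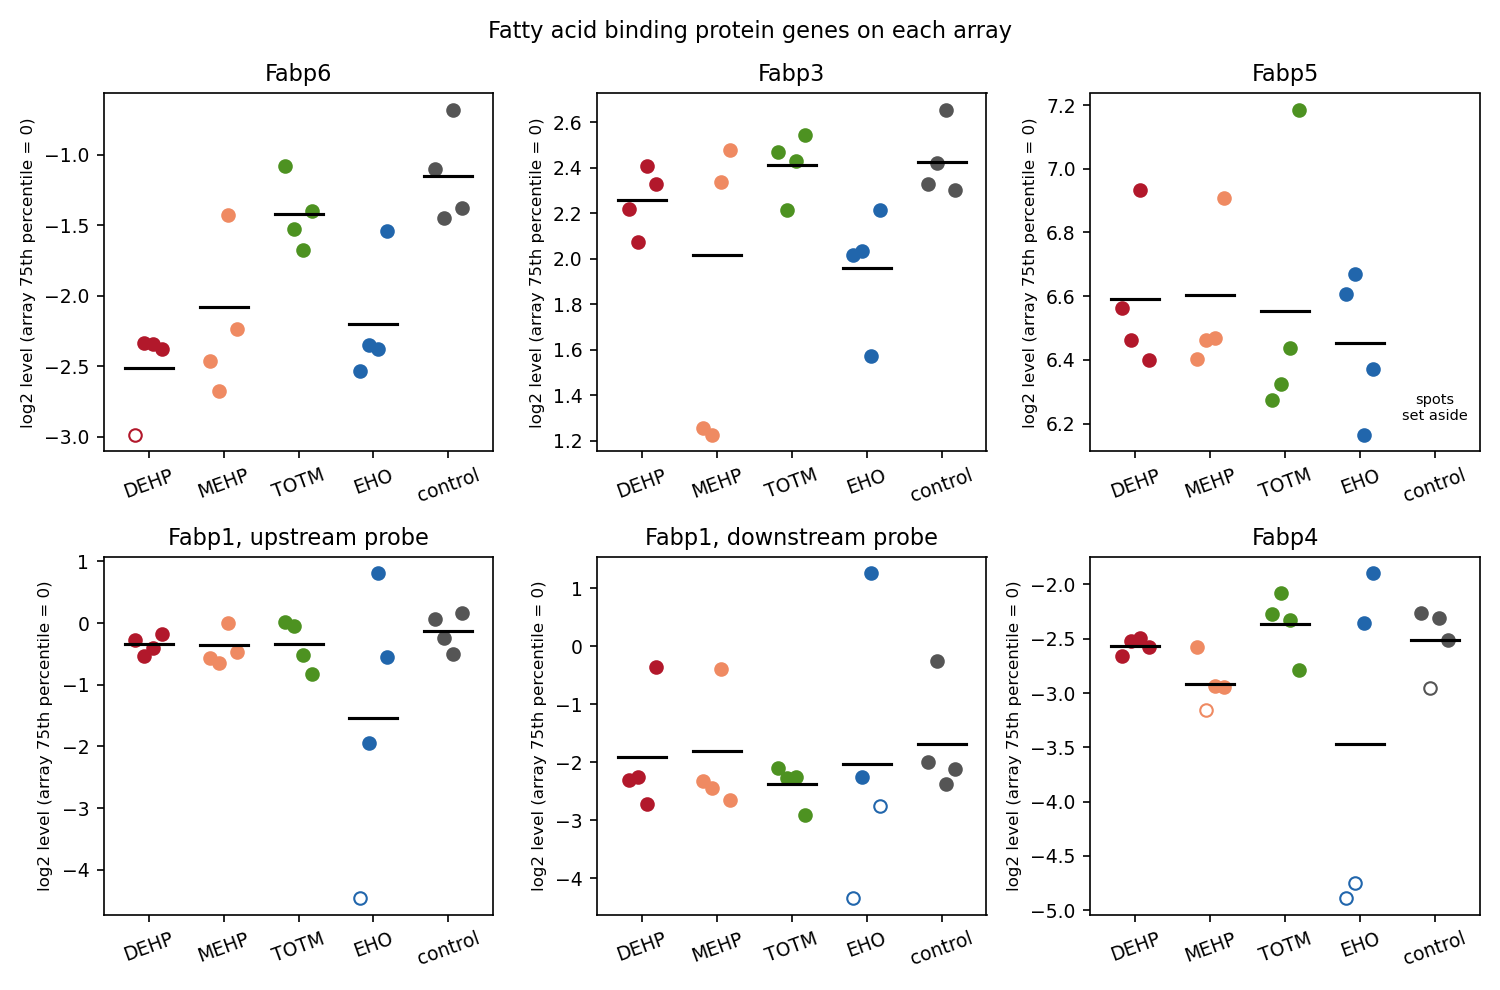
Log2 level (processed signal relative to the 75th percentile of its array) of the Fabp probes on each array, by group from DEHP to control; filled points are well above background, open points are not, and lines are group means (MEHP 1 and MEHP 2 averaged first). For Fabp6 the DEHP arrays sit between -2.98 and -2.33 and the control arrays between -1.45 and -0.68.

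As group means the order was DEHP at -2.51 ± 0.32, EHO at -2.20 ± 0.45, MEHP at -2.08 ± 0.59, TOTM at -1.42 ± 0.25 and control at -1.15 ± 0.35 (SD, n = 4, with 3 for MEHP). Each neighbouring pair in that order overlapped. The difference of DEHP from control was -1.36 ± 0.26 (SE) on the log2 scale, or 2.56-fold lower, and chose the family. Fabp6 lay near background in DEHP and EHO testes, with processed signals of 33.9 to 64.0 and 36.6 to 86.8, against 101 to 191 in controls. The lowest signals well above background were 31.2 to 33.2 on DEHP arrays and 31.1 to 39.4 on EHO arrays. After normexp background correction with quantile normalization the difference of DEHP from control was -0.56. In that comparison 0.00418% of 23897 genes were called at an adjusted p under 0.05, and 2.92% of genes had groups that did not overlap.

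Against control, Fabp6 fell in EHO testes, the only member called there. The 4 control arrays of this comparison also entered the DEHP contrast that chose the family, so the test is not independent of that choice. The difference was -1.05 ± 0.26, a 2.07-fold lower level (limma, adjusted p = 0.0221; two-sided exact permutation p = 0.0286, the smallest that 4 against 4 allows). That is 1 called of 4 members tested, beside 24.8% of all genes called in the same comparison, so the share of members called is near the background. The median of all genes was itself lower in EHO testes by -0.18, and relative to it Fabp6 was lower by -0.87. The call was lost without control 1 (adjusted p = 0.0679), without EHO 1 (0.0691) and without EHO 2 (0.0605), and it passed in the other 17 fits that leave out 1 array each. Without both EHO 1 and EHO 2 the difference was -0.81 (adjusted p = 0.238). The size also moved with the scaling: it was -0.52 with arrays centred on their median (adjusted p = 0.122), -0.67 with quantile normalization (0.0677) and -0.34 with normexp background correction and quantile normalization (0.0503), none of which passed.

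The Fabp6 tests of MEHP and TOTM against control reuse the same 4 control arrays, so they too are not independent of the choice of the family. Fabp6 in MEHP testes was -0.92 ± 0.28 relative to control and did not pass (limma, adjusted p = 0.262). Its exact permutation p was 0.114, where 0.0571 is the smallest that 3 against 4 allows. In that comparison 0 of 4 members and 0.946% of all genes were called by limma, and 1 member, Fabp6, had an unadjusted p under 0.05. Without MEHP 3 and MEHP 4 the difference was -1.42 ± 0.37 (adjusted p = 0.171), a value that rests on 1 sample assumed to vary like the other groups. Without MEHP 3 and control 2, the arrays that resembled each other, it was -1.35 ± 0.30 (adjusted p = 0.0568). With arrays weighted by how closely they followed the group means it passed (limma, adjusted p = 0.00121), and 15.5% of all genes were then called. In that fit MEHP 4 had a weight of 9.39, against 1.02 for the averaged MEHP 1 and MEHP 2 and 0.39 for MEHP 3. In TOTM testes the difference was -0.27 ± 0.26, with a 95% interval of -0.83 to 0.29 (adjusted p = 0.910), and 0 of 4 members and 0.00837% of all genes were called, with 0 members at an unadjusted p under 0.05.

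**Figure D2:**
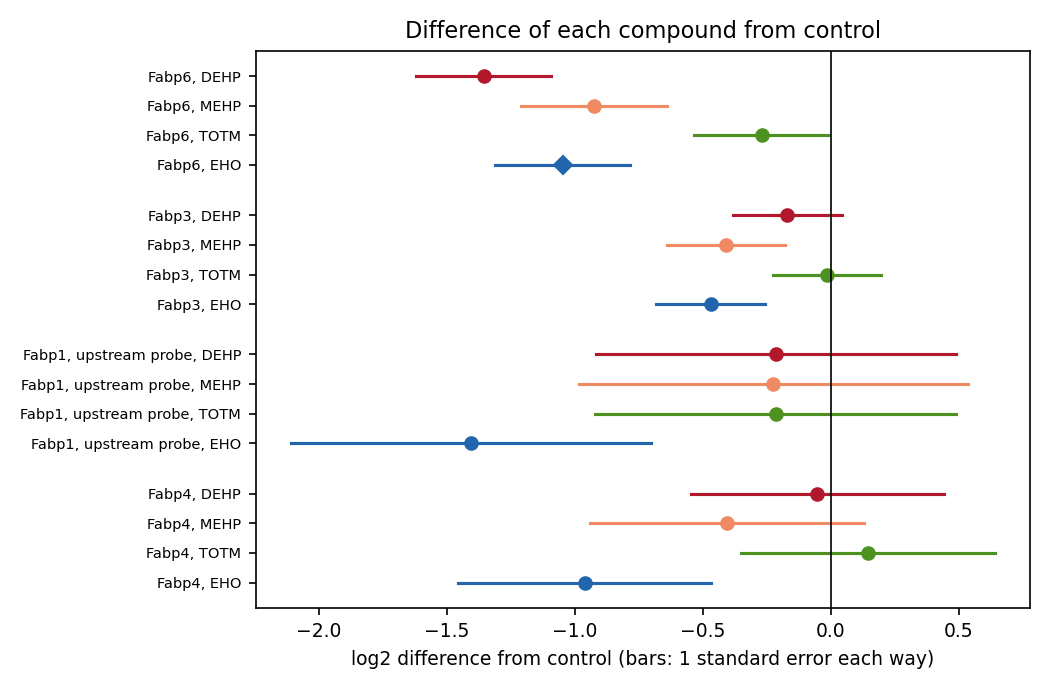
Log2 difference of each compound from control for the members measured in controls, with bars of 1 standard error each way; the diamond marks an adjusted p under 0.05 (Fabp6, EHO) and DEHP differences are a description. Fabp6 points for DEHP (-1.36) and EHO (-1.05) lie farthest left of 0 within that gene, followed by MEHP (-0.92), and TOTM (-0.27) lies nearest to 0.

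The 6 pairs of compounds were compared at the same dose by mass and the same days, with p-values adjusted over all genes within each pair. For Fabp6, pairs with DEHP are descriptions. TOTM, the trimellitate triester, was +1.09 ± 0.26 above DEHP, the phthalate diester, with no overlap, as for 4.81% of all genes in that pair. MEHP, the monoester, was +0.43 ± 0.28 above DEHP, and EHO was +0.31 ± 0.26 above it, both with overlap. Fabp6 was lower in EHO than in TOTM testes by -0.78 ± 0.26 (1.72-fold, adjusted p = 0.0469), although the arrays overlapped and the exact permutation p was 0.0571. This was 1 call among 5 members, beside 21.6% of all genes. Without EHO 1 and EHO 2 the difference was -0.54 (adjusted p = 0.420). The call passed in 7 of the 20 fits that leave out 1 array each, with adjusted p between 0.00822 and 0.146.

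TOTM minus MEHP was +0.66 ± 0.28 for Fabp6 (adjusted p = 0.313), with a 95% interval of 0.05 to 1.26 before adjustment, and from 0.28 to 1.15 over alternative settings (the highest without MEHP 3 and MEHP 4). EHO minus MEHP was -0.12, with an interval of -0.72 to 0.48 (adjusted p = 0.795), which leaves room for a difference in either direction. No member was called by limma in the pairs other than EHO minus TOTM, and at an unadjusted p under 0.05 those pairs held 1 member, Fabp6 in TOTM minus MEHP. The background share called was 1.12% in MEHP minus DEHP, 0% in TOTM minus DEHP (0 of 24217 genes), 6.62% in EHO minus DEHP, 1.52% in TOTM minus MEHP and 0.281% in EHO minus MEHP.

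Markers of steroid-making cells moved in part with Fabp6. The mean level of 7 Leydig and steroidogenic markers with a value on every array ran from 1.64 to 2.12 in DEHP testes. It was 0.63, 0.72, 2.79 and 1.95 in MEHP testes, 2.59 to 2.88 in TOTM testes, 1.95 to 2.53 in EHO testes and 2.64 to 2.98 in controls. MEHP 3, the MEHP array with the highest Fabp6 level, had a marker mean within the control range, while EHO 1, at a Fabp6 level of -2.53, had a marker mean of 2.45. Of the 8 markers tested against control, 0 were called by limma in DEHP, MEHP or TOTM testes (5, 5 and 1 at an unadjusted p under 0.05), and 1 was lower in EHO testes (Lhcgr, the luteinizing hormone receptor, by -0.95, adjusted p = 0.0363). The mean of 4 adrenal cortex markers ran from -1.68 to -0.95 in DEHP testes, -1.97 to -0.33 in MEHP testes, -0.39 to 0.01 in TOTM testes, -2.30 to -0.59 in EHO testes and -0.29 to -0.10 in controls. Of these, 2 were called lower in EHO testes, beside 24.8% of all genes in that comparison. The EHO means were -2.30 and -1.79 on EHO 1 and EHO 2, with 2 of the 4 genes well above background, and -1.24 and -0.59 on EHO 3 and EHO 4. Without EHO 1 and EHO 2 neither gene passed, nor did Lhcgr (-0.85, adjusted p = 0.276). The defining adrenal markers Cyp21a1 and Mc2r were well above background on 3 and 5 of 20 arrays. The part of either list in the Fabp6 result was not tested, and in pooled testes fewer cells of a type and less RNA per cell cannot be told apart.

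The genes most like Fabp6 over 19 samples, among 4781 genes with a symbol and well above background on all arrays, were Gsta2 (Pearson r = 0.87), Lpcat3 (0.85), Atp4b (0.82), Rln1 (0.81) and Aldh1l1 (0.79). Gsta2, a glutathione transferase, ran from -1.74 to -0.73 in DEHP testes, -2.15 to 1.16 in MEHP testes and 1.03 to 1.71 in TOTM testes. It ran from -0.46 to 0.74 in EHO testes and from 1.18 to 1.98 in controls. With group means removed, r between Fabp6 and Gsta2 was 0.70. Such correlations describe arrays that share their groups and carry no p.

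**Figure D3:**
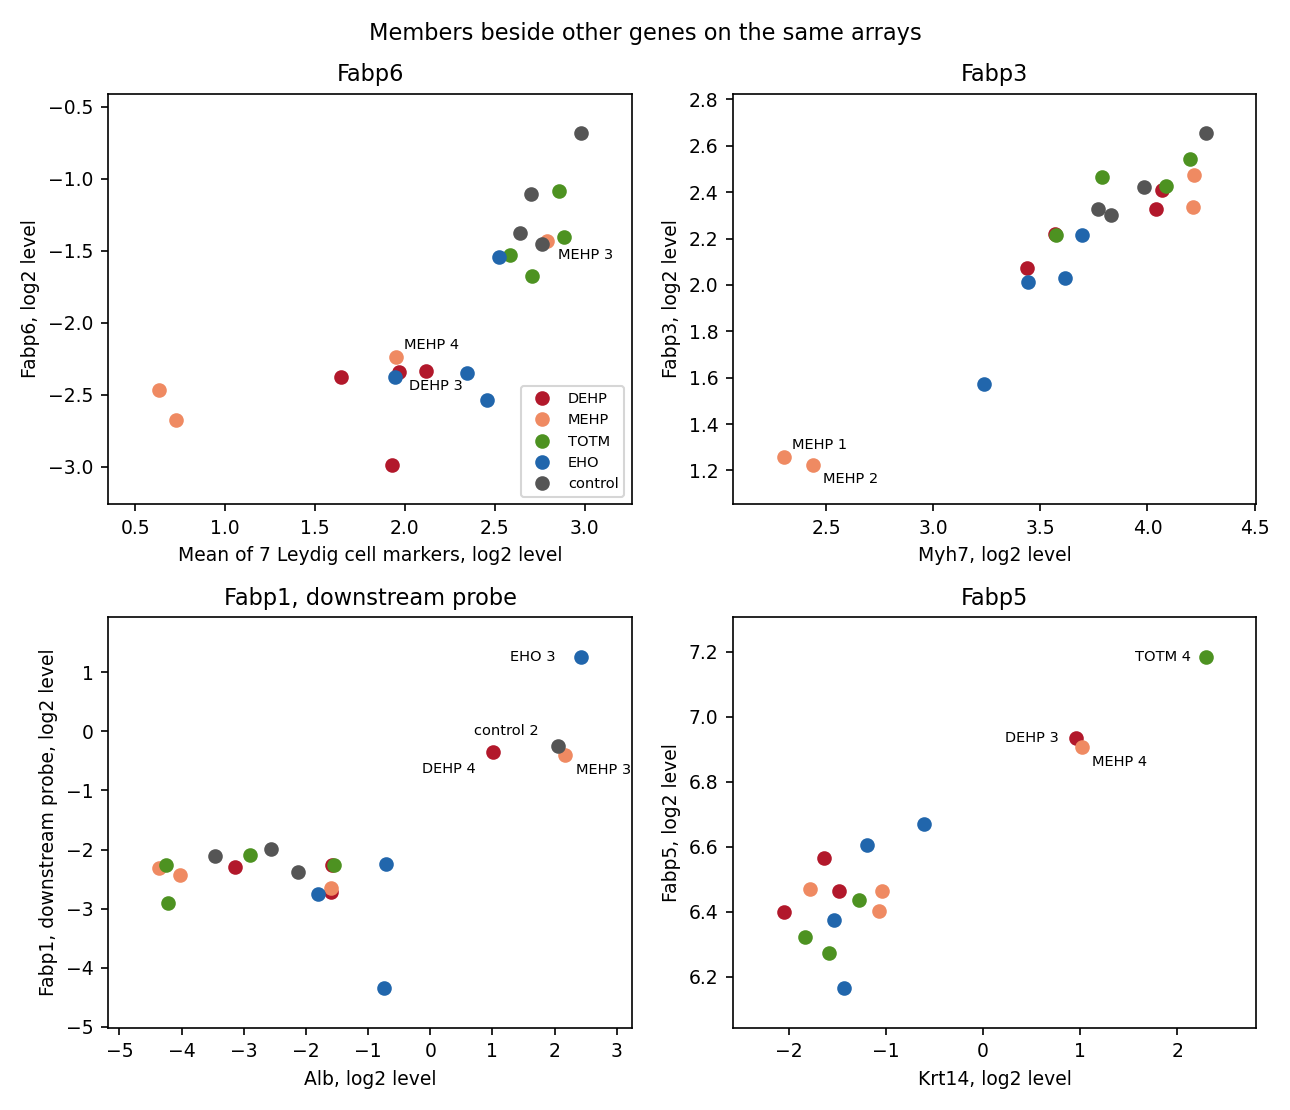
Log2 level of Fabp6 against the mean of 7 Leydig cell markers, Fabp3 against Myh7, the downstream Fabp1 probe against Alb and Fabp5 against Krt14; each point is an array, coloured by group, and Fabp5 has no control point. MEHP 1 and MEHP 2 stand apart for Fabp3 and Myh7 (2.30 and 2.44). DEHP 4, MEHP 3, EHO 3 and control 2 stand apart for the downstream Fabp1 probe and Alb.

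Fabp3, the heart and muscle carrier, was lower in EHO than in control testes without overlap, but the difference did not pass. Its probe lies at chr5:149344170-149344229 of rn4. Levels were 2.22, 2.07, 2.41 and 2.33 in DEHP testes and 1.26, 1.23, 2.34 and 2.48 in MEHP testes. They were 2.47, 2.21, 2.43 and 2.54 in TOTM testes, 2.01, 2.03, 1.57 and 2.21 in EHO testes and 2.33, 2.42, 2.65 and 2.30 in controls. MEHP 1 and MEHP 2 stood below all other arrays, and the remaining MEHP arrays lay with the controls. EHO minus control was -0.47 ± 0.21 (adjusted p = 0.0967; exact permutation p = 0.0286), in a comparison where 13.4% of all genes had groups that did not overlap. Centring arrays on the median turned this to +0.06, a setting in which the median of all genes stood at +0.35. Relative to the median of all genes the difference was -0.29 under both scalings, which follows from each shifting whole arrays. Relative to that median it was -0.66 with quantile normalization and -0.73 with normexp and quantile normalization, settings in which Fabp3 was called.

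MEHP minus control was -0.41 ± 0.23 for Fabp3 (adjusted p = 0.976). Without MEHP 3 and MEHP 4 it was -1.19 ± 0.22, 2.27-fold lower, and passed (adjusted p = 0.0266), with the same assumption about the lone remaining sample. Without MEHP 3 and control 2 it was -0.57 (adjusted p = 0.854). DEHP minus control was -0.17 and TOTM minus control -0.01. Between compounds, EHO minus TOTM was -0.45 (95% interval -0.90 to -0.01, adjusted p = 0.104) and EHO minus DEHP -0.30 (adjusted p = 0.302).

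The genes most like Fabp3 were Myh7 (r = 0.94) and Myh6 (0.92), which encode cardiac myosin heavy chains, then Plbd1 (0.91), the steroidogenic enzyme gene Hsd3b1 (0.88) and the peroxisomal thiolase gene Acaa1a (0.87), over 19 samples. Myh7 was 2.30 and 2.44 on MEHP 1 and MEHP 2 and between 3.23 and 4.27 on all other arrays. The striated muscle markers did not move as a block. Of 9 tested, Actc1 (+0.98, adjusted p = 0.00797) and Mb (+0.58, adjusted p = 0.0373) rose in MEHP testes, beside 0.946% of all genes called there. Both also rose in EHO testes (Actc1 +1.12, adjusted p = 0.00136, and Mb +0.59, adjusted p = 0.0086), where 1 other marker fell. In EHO minus control 24.8% of all genes were called. Without EHO 1 and EHO 2, Actc1 still passed in EHO testes (+1.08, adjusted p = 0.0208), while Mb (+0.51, adjusted p = 0.0964) and the marker that fell did not. Without MEHP 3 and MEHP 4 neither Actc1 (+1.04, adjusted p = 0.124) nor Mb (+0.82, adjusted p = 0.0507) passed in MEHP testes. Without MEHP 3 and control 2, Actc1 passed in MEHP testes (+1.02, adjusted p = 0.0249) and Mb did not (+0.67, adjusted p = 0.0522). Acta1, the skeletal muscle actin, lay between -3.24 and -1.45. The mean of the 9 markers ran from 0.77 to 0.92 in DEHP testes, 0.46 to 1.16 in MEHP testes, 0.82 to 1.5 in TOTM testes, 0.52 to 0.92 in EHO testes and 0.84 to 1.21 in controls. Their part in the Fabp3 values was not tested.

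Fabp1, the liver carrier, showed single arrays rather than groups apart. On the upstream probe, levels were between -0.53 and -0.18 in DEHP testes, between -0.65 and 0.01 in MEHP testes and between -0.83 and 0.02 in TOTM testes. EHO testes had -4.46 (not well above background), -1.95, 0.81 and -0.54, and controls lay between -0.51 and 0.16. EHO arrays thus held both the lowest and the highest values. EHO minus control was -1.40 ± 0.70 (adjusted p = 0.129), and it was called without EHO 3 (-2.19, adjusted p = 0.0110). The standard error comes from a spread shared by all 5 groups, with an SD of 2.25 in EHO testes and 0.30 in controls.

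On the downstream probe, DEHP testes had -2.30, -2.26, -2.71 and -0.36 and MEHP testes -2.31, -2.44, -0.40 and -2.65. TOTM testes had -2.10, -2.26, -2.25 and -2.90. EHO testes had -4.34, -2.25, 1.26 and -2.75, the first and last not well above background, and controls -2.0, -0.25, -2.37 and -2.12. A single array in each of DEHP, MEHP, EHO and control was high: DEHP 4, MEHP 3, EHO 3 and control 2. On the upstream probe these arrays read -0.18, 0.01, 0.81 and -0.24. There control 2 lay below control 1 (0.06) and control 4 (0.16), and DEHP 4 lay near DEHP 1 (-0.27). MEHP 3 was the highest MEHP array there but lay beside TOTM 1 (0.02). The probes had r = 0.65 over 20 arrays, and no comparison of the downstream probe passed.

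The arrays high on the downstream probe were also high for Alb, liver albumin, a marker named here after its values were seen. Alb was 1.0 on DEHP 4, 2.17 on MEHP 3, 2.43 on EHO 3 and 2.05 on control 2, and between -4.36 and -0.72 on the other arrays. Afp, the fetal liver and yolk sac protein, was 5.06 on EHO 3 and 3.20 on DEHP 4, but 2.10 on MEHP 3 and 2.34 on control 2, below the 2.54 of EHO 2. The other markers of enterocytes and hepatocytes did not set the 4 arrays apart together. Apoa1, an apolipoprotein, was -0.35 on EHO 3 and -1.09 on DEHP 4, the highest levels of the series, but -2.16 on MEHP 3 and -1.82 on control 2. Ttr, the transthyretin gene, was -0.66 on EHO 3, -1.24 on DEHP 4, -1.05 on MEHP 3 and -1.11 on control 2, against -0.74 on control 1. Vil1, which marks enterocytes, was between -2.18 and -0.68. The mean of the 7 markers, with Alb among them, ran from -1.43 to -0.69 in DEHP testes, -1.85 to -0.79 in MEHP testes, -1.82 to -1.13 in TOTM testes, -2.51 to -0.03 in EHO testes and -1.60 to -0.84 in controls. The part of these markers in the Fabp1 values was not tested. The genes most like the upstream probe (Pxylp1, Kcnh3, Kcnn4, Ager and Tle4, r from 0.93 to 0.94) had their lowest levels on EHO 1 and EHO 2.

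Fabp5, the epidermal carrier, had a signal on all arrays but no usable value in controls. There the software marked its spot as an outlier on all 4 arrays. The mark was not particular to Fabp5: it fell on 539 to 551 spots of each control array, against 66 to 144 on the other arrays. Among bright spots it fell on 434 to 456 of each control array, against 0 to 6 on the other arrays. The probe is placed on chrUn:41847300-41847359 of rn4, so no gene position is given for it. Levels were 6.56, 6.46, 6.93 and 6.40 in DEHP testes and 6.40, 6.46, 6.47 and 6.91 in MEHP testes. TOTM testes had 6.27, 6.32, 6.44 and 7.19, and EHO testes 6.61, 6.67, 6.16 and 6.37. Compounds overlapped throughout, and DEHP 3, MEHP 4 and TOTM 4 stood highest. Differences between compounds were at most 0.15 in size, and the 95% interval of EHO minus MEHP ran from -0.63 to 0.33. With the marked spots kept, the control mean was 6.07 ± 0.14 and MEHP stood +0.53 above it, TOTM +0.48 and EHO +0.38, none called (limma, adjusted p from 0.131 to 0.556). DEHP stood +0.52 above the control mean, a description with no test. All of these differences from control rest on control spots in the bright range that was widely marked on that slide. Whether the marking bears on their size was not tested.

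The genes most like Fabp5 over its 15 samples were Krt14 (r = 0.92) and Krt15 (0.87), keratins of basal epidermis, Lgals7 (0.86), Krt33a (0.85) and Hopx (0.83). Krt14 was 0.96 on DEHP 3, 1.02 on MEHP 4 and 2.29 on TOTM 4, and between -2.05 and -0.61 on the other arrays with a Fabp5 value. Krt15 reached 3.0 in TOTM testes and did not exceed 0.06 in controls. The likeness rests on these 3 arrays, of which DEHP 3 and MEHP 4 also resembled each other over all probes. Their part in the Fabp5 values was not tested. Gene names that resemble Fabp5 on the array (LOC296723, LOC503340 and RGD1563350) could bind similar target RNA, and none was called against control in MEHP, TOTM or EHO testes.

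Fabp4, the fat cell carrier, lay near background. Its probe spans chr2:93536175-93538589 of rn4. Levels were -2.66, -2.52, -2.49 and -2.57 in DEHP testes and -2.58, -3.16, -2.93 and -2.95 in MEHP testes. TOTM testes had -2.27, -2.08, -2.32 and -2.79, EHO testes -4.89, -4.75, -2.35 and -1.90, and controls -2.26, -2.96, -2.31 and -2.52. MEHP 2, EHO 1, EHO 2 and control 2 were not well above background. EHO 1 and EHO 2 stood lowest of all arrays, while EHO 4 stood highest, so the EHO group spans the range of the series. EHO minus control was -0.96 ± 0.50 (adjusted p = 0.140, but 0.0395 without EHO 3 and 0.0115 without EHO 4), and EHO minus TOTM -1.11 ± 0.50 (adjusted p = 0.0922).

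With MEHP 1 and MEHP 2 averaged, the MEHP samples lay below the DEHP arrays (-0.35 ± 0.54, adjusted p = 0.999) and the TOTM samples above the MEHP samples (+0.55 ± 0.54, adjusted p = 0.698). The standard errors of both pairs come from a spread shared by all 5 groups, EHO among them. The SD of Fabp4 was 1.57 in EHO testes, 0.04 in MEHP, 0.08 in DEHP and 0.30 in TOTM testes. Of all genes, 14.5% and 20.1% had groups that did not overlap in these pairs, so separation of a single member is not unusual there. Fabp4 was most like Rom1 (r = 0.97), Vamp2 (0.95), Gimap1 (0.94) and Tgoln2 (0.94). Rom1 was -1.87 and -1.44 on EHO 1 and EHO 2, 0.19 and 0.28 on EHO 3 and EHO 4, and -0.02 to 0.52 in controls. Among adipocyte markers, Pparg was well above background on 0 of 20 arrays and Adipoq, the adipocyte hormone, lay between -3.57 and -0.52, lowest on EHO 1.

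Genes around the family were counted from lists of related pathways. In DEHP, MEHP and TOTM testes, limma called 0 genes of the 5 lists against control, where each list held at most 2 genes at an unadjusted p under 0.05. Of the intracellular lipid-binding relatives (9 listed, 5 tested against control), Rbp2 (-1.21, adjusted p = 0.0388) and Rbp7 (-1.74, adjusted p = 0.0459), which encode retinol carriers, fell in EHO testes. Both calls rested on EHO 1 and EHO 2, on which 3 of the 5 genes were well above background. Rbp7 was -5.03 and -2.83 on those arrays, -1.27 and -1.05 on EHO 3 and EHO 4, and -1.41 to -0.35 in controls. Without EHO 1 and EHO 2 the share of all genes called in EHO minus control was 0.899%, and neither gene passed (Rbp2 -0.26, adjusted p = 0.494; Rbp7 -0.35, adjusted p = 0.589). With all arrays that share was 24.8%, and the median over the 5 was -0.11, beside -0.18 over all genes.

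Bile acid handling and FXR targets had 18 listed genes, of which 9 were tested. Of these, 2 fell in EHO testes: Abcc2, a canalicular export pump (-0.95, adjusted p = 0.0306), and Cyp7b1, an oxysterol hydroxylase (-0.86, adjusted p = 0.0335). These 2 calls of 9 stand beside 24.8% of all genes called in EHO minus control. The median was -0.42 in EHO testes, beside -0.18 over all genes, and all 9 lay below control. The mean level of the 9 was -2.27 and -1.83 on EHO 1 and EHO 2, with 4 and 5 of the genes well above background. It was -1.24 and -0.99 on EHO 3 and EHO 4, and -1.16 to -0.94 in controls. Without EHO 1 and EHO 2 neither call passed (Abcc2 -0.38, adjusted p = 0.418; Cyp7b1 -0.26, adjusted p = 0.541). Slc10a1, Slc51b, Cyp7a1, Cyp8b1, Gpbar1 and Baat, which import, export, synthesise, conjugate or sense bile acids, were well above background on 0 of 20 arrays. The ileal importer gene Slc10a2 was so on 6 of 20.

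Fatty acid uptake and activation had 20 listed genes and 18 tested against control, of which 0 were called in any compound, with a median of +0.09 in EHO testes. In EHO minus TOTM, 2 of 19 passed: Acsl3, an acyl-CoA synthetase, was higher (+0.41, adjusted p = 0.0457), and Acot7, an acyl-CoA thioesterase, was lower (-0.74, adjusted p = 0.0345). Among lipid-sensing nuclear receptors (10 listed, 8 tested), Rxrg, a retinoid X receptor, fell in EHO testes (-0.65, adjusted p = 0.0262). Their median was -0.33 in EHO testes and -0.39 in MEHP testes, where 0 passed. Of triglyceride storage and lipolysis genes (13 listed, 8 tested), Cidea, a lipid droplet protein, fell in EHO testes (-0.85, adjusted p = 0.0243), with a list median of -0.58. In EHO minus TOTM, Cidea (-0.79, adjusted p = 0.0255) and the hormone-sensitive lipase gene Lipe (-0.84, adjusted p = 0.0376) were lower. These counts stand beside the 24.8% and 21.6% of all genes called in the same comparisons. Without EHO 1 and EHO 2 none of these calls passed: Rxrg was -0.43 (adjusted p = 0.315) and Cidea -0.39 (adjusted p = 0.223) relative to control, and in EHO minus TOTM the adjusted p was 0.446 for Acsl3, 0.114 for Acot7, 0.238 for Cidea and 0.560 for Lipe.

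The authors' deposited table lists signed fold changes for altered probes of each compound against control. The authors' deposited table gives Fabp6 as -2.24 with DEHP and -2.3 with MEHP, a negative sign meaning lower with the compound. Its p-values there, from a test the authors do not name, are 2.51e-07 with DEHP and 2.71e-08 with MEHP. The DEHP value belongs to the contrast that chose the family and comes from the same arrays, so it is a description and not independent of that choice. In the authors' deposited table Fabp3 stands at -2.3 with MEHP (authors' p = 1.7e-24), and the upstream Fabp1 probe at -1.4 (authors' p = 0.00357). A block that the authors' deposited table heads EH holds Fabp3 at -1.44 (authors' p = 0.00015) and does not list Fabp6; whether that heading means EHO is not settled by the labels. No member is listed for TOTM in the authors' deposited table. These are fold changes from the authors' processing, in which their handling of MEHP 1 and MEHP 2 is not given in the sources used here.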

How the data were processed

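Per the file headers, the deposited intensity values come from Agilent Feature Extraction 9.5.3.1 with probe coordinates on rn4, and the processed signal used here was background-subtracted and detrended within each array. Each probe in the authors' deposited table has a score, the fold change with a sign for its direction, beside the authors' p-value, and the tool behind them is not given in the sources used here.

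The log2 processed signal minus the 75th percentile of its array was used, without pseudocount. Outlier and control spots were left out, and spots of a probe were averaged. Probes were kept (28133) where all arrays of some group were well above background. For each gene the probe with the highest mean was fitted (24217 genes, 23897 against control). limma 3.58.1 in R 4.3.3 fitted group means over 19 samples, with 1 spread per gene shared by all 5 groups. Benjamini-Hochberg adjustment ran over all genes in each of 10 comparisons. MEHP 1 and MEHP 2 were averaged. The number of arrays limits the precision. The steps were tested on simulated data.

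Members, lists and tests were chosen with earlier results of these data known. All members are described. Named list genes are those called, up to 4 a list, and likeness names genes among the 5 with the highest Pearson r; some items under these rules are not reported here. Same-numbered arrays had a median r of 0.00435 over 40 pairs, with values from -0.75 to 0.43 and 15 pairs over 0.1. These values do not settle whether numbers pair samples, and the main fit did not pair them. Alternatives covered normalization, scaling, filters, variance model, outlier spots and arrays left out.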

Additional observations from a re-analysis of the deposited data

Results flagged for a closer look

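In DEHP testes the Fabp6 level of DEHP 1 was -2.98, and the nearest of the other DEHP arrays was at -2.38. The spot on DEHP 1 was not well above background. It stood out for its distance from the rest of its group among 23 groups of 4 arrays, where chance alone gives about 1 in 20. These DEHP values entered the choice of the family, so the distance is a description with no test.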

How the results depend on the processing

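The Fabp6 difference of DEHP from control was -0.56 after normexp background correction with quantile normalization, and between -1.45 and -1.20 when any 1 array was left out. For MEHP minus control, 1 member was called in place of 0 under normexp with quantile normalization (Fabp3), with array weights (Fabp6), and without MEHP 3 and MEHP 4 (Fabp3). For EHO minus control, 0 were called in place of 1 with median scaling, with the filter on all 20 arrays (which Fabp6 does not pass), with array weights, without EHO 1 and EHO 2, and with arrays of the 2 groups alone. There 2 were called with the percentile over detected probes and without MEHP 3 and MEHP 4. Quantile normalization with and without normexp also left 1 call, but of Fabp3 (adjusted p = 0.0019 and 0.00716) and not of Fabp6 (0.0503 and 0.0677). Leaving out 1 array gave 0 to 3 (3 without EHO 3, 2 without EHO 4). For EHO minus TOTM, 0 were called in place of 1 with quantile normalization, median scaling, no filter, the filter on all arrays, array weights, the replicate block, the 2 groups alone, without EHO 1 and EHO 2, and without MEHP 4 and DEHP 3 (chosen after seeing the data). There 2 were called without MEHP 3 and MEHP 4, and 0 to 2 with 1 array left out. EHO minus DEHP gave 0 to 1 with 1 array left out. TOTM minus MEHP gave 2 with array weights and 1 without MEHP 3 and MEHP 4. The cause of these changes was not tested. The replicate block left the count at 1 for EHO minus control, where 9.24% of all genes were then called, against 24.8% without it. Of 20 arrays, 1 matched its own number best. The share of all genes called against control in EHO testes ran from 0.0126% (2 groups alone) to 43.6% (without EHO 4). Across alternatives the adjusted p of Fabp6 in EHO minus control ran from 0.0164 to 0.238. Fabp1 and Fabp4 in EHO minus control turned to +0.26 and +0.39 without EHO 1 and EHO 2, where neither passed. For genes of the lists, the fits without EHO 1 and EHO 2 or without MEHP 3 and MEHP 4 were chosen after seeing the data. The fit without MEHP 3 and control 2 was chosen likewise for those genes.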
